A study of Mus musculus with 9 samples.

Results

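The 10 genes described here encode enzymes and metal-binding proteins that handle oxidants. They were chosen by symbol, all 10 were present among the 16698 genes of the table, and all 10 passed the filter on low values that left 13712 genes for testing. The study sequenced left-ventricle messenger RNA of 14-day-old mice of the ICR/CD1 strain. Transverse aortic constriction (TAC) is surgery that ties the aortic arch to a narrower width, which raises the pressure against which the ventricle works. There were 3 libraries of mice with TAC on postnatal day 1 (day-1 TAC), 3 of mice with TAC on postnatal day 7 (day-7 TAC) and 3 of sham-operated mice. No genotype, transgene or drug is given for any group, the sham mice carry no day of surgery in the labels used here, and their age at harvest is that of the TAC mice. In the TAC groups, age at surgery and time under load differed together and cannot be told apart.

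NRF2, encoded by Nfe2l2, is a transcription factor that KEAP1 marks for degradation under resting conditions. Oxidants and electrophiles modify KEAP1, and NRF2 then accumulates, pairs with small MAF proteins and binds the antioxidant response element in the promoters of genes for glutathione synthesis, thioredoxin reduction and quinone detoxification. BACH1 competes for the same elements. Metallothioneins are small cysteine-rich proteins that hold zinc and copper and are induced by metals through MTF1 and by glucocorticoids, and the NADPH oxidase NOX4 makes hydrogen peroxide in several cell types of the heart.

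The libraries held 18535202 to 26521005 recovered reads, and each of the 10 genes had at least 64 reads in every library, with the lowest number in Nox4. The lowest correlations within a group were those of day-1 TAC replicate 1 (r of 0.977 and 0.981 across genes with its 2 partners). Xist stood at 10532 reads in day-1 TAC replicate 3 and at 40 or fewer in the other 8 libraries, while the Y-linked Ddx3y stood at 18 reads there and at 3312 to 4706 elsewhere; the labels give no sex. The summed level of 8 cardiomyocyte markers was 76714 to 102776 in day-1 TAC, 95162 to 102577 in day-7 TAC and 114400 to 123880 in sham libraries, on the linear scale. Myh6 was the highest of the 8 in each library and so weighs most in this sum. Of the 8, 2 were called lower and 0 higher than in sham in each TAC group (limma, adjusted p under 0.05). Of all genes tested, 20.5% were called lower in day-1 TAC and 15.1% in day-7 TAC. The levels of Actn2, Myl2 and Ttn overlapped those of sham in both TAC groups. In whole tissue, fewer cells of a type and less RNA per cell cannot be told apart, and the part of cell makeup in the results that follow was not tested.

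Srxn1 and Gclc were higher in both TAC groups than in sham, Gpx3 was higher in day-1 TAC, and Txnrd1 was higher in both TAC groups, by less. Against sham, day-1 TAC called 4 of the 10 genes, all higher (limma, adjusted p under 0.05), where 34.8% of all genes tested were called, 14.3% higher and 20.5% lower. Day-7 TAC called 3 of 10, all higher, where 28.9% of all genes were called, 13.8% higher and 15.1% lower. Between the TAC groups 1 of 10 was called, Nqo1, which was higher in day-1 TAC, where 16.7% of all genes were called, 6.42% higher and 10.3% lower. The shares of the 10 genes called in either direction thus lay near those of all genes. On the log2 scale, the median fold change of the 10 genes was 0.32 in day-1 TAC over sham, 0.23 in day-7 TAC over sham and 0.24 in day-1 over day-7 TAC, beside -0.04, -0.01 and -0.03 over all genes tested. Both TAC groups were set against the same sham libraries, so their fold changes are not independent of each other.

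**Figure D1:**
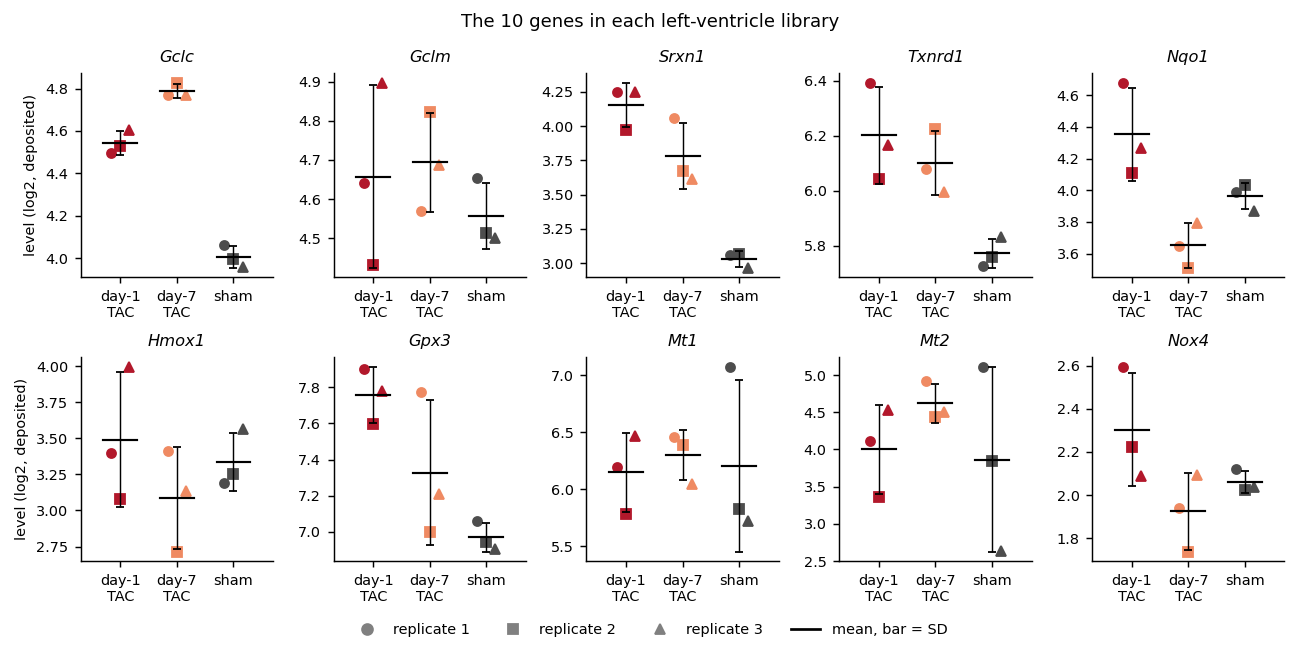
Deposited log2 level of each gene (vertical axis, own range per panel) in the 3 libraries of day-1 TAC, day-7 TAC and sham; symbols mark replicates, the line is the mean and the bar the SD. Srxn1, Gclc and Txnrd1 lie above sham in all 6 TAC libraries, and Nqo1 lies above sham in day-1 TAC and below it in day-7 TAC.

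Glutamate-cysteine ligase makes the rate-limiting step of glutathione synthesis from a catalytic subunit, Gclc, and a modifier subunit, Gclm. Gclc is on chromosome 9 (chr9:77754535-77794485, plus strand, GRCm38). It had log2 levels of 4.50, 4.53 and 4.60 in day-1 TAC libraries, 4.77, 4.83 and 4.77 in day-7 TAC libraries, and 4.06, 4.0 and 3.96 in sham libraries. The 3 groups did not overlap, and day-7 TAC stood highest. Gclc was 1.45-fold higher in day-1 TAC than in sham (log2 fold change 0.54, SE 0.08, limma adjusted p = 0.000823). It was 1.72-fold higher in day-7 TAC than in sham (0.78, SE 0.08, limma adjusted p = 0.000178), which placed it 73rd of all genes by p. Between the TAC groups the difference was -0.25 (SE 0.08), with a limma adjusted p of 0.0525. That value fell to 0.0412 to 0.0491 in 4 of the other settings, 1 of them the fit without sham replicate 1. It rose to 0.128 with mean centring (-0.18), 0.129 with the upper quartile (-0.18) and 0.0856 with a trimmed mean (-0.21). Without the filter on low values it was 0.0660. Neutrophil markers had the same order of group means. The 8 markers summed to 7.29, 9.20 and 33.7 in day-1 TAC, 32.3, 71.6 and 41.8 in day-7 TAC, and 4.34, 4.10 and 2.29 in sham. Against sham, 5 of them were higher in day-1 TAC and 8 in day-7 TAC, beside 14.3% and 13.8% of all genes. Between the TAC groups 2 were lower in day-1 TAC, beside 10.3% of all genes. The part of these markers in the Gclc levels was not tested. The pooled SD of Gclc within groups was 0.048 on the log2 scale, beside a median of 0.13 for 2385 genes of like level, and 1.26% of those genes had a smaller one.

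Gclm, the modifier subunit on chromosome 3, was not called in any comparison. Its levels were 4.64, 4.43 and 4.90 in day-1 TAC, 4.57, 4.82 and 4.69 in day-7 TAC, and 4.65, 4.51 and 4.50 in sham. The groups overlapped, with the lowest and the highest of the 9 libraries both in day-1 TAC. The fold change was 0.10 in day-1 TAC over sham (95% confidence interval -0.17 to 0.37) and 0.14 in day-7 TAC over sham (-0.13 to 0.41). The interval for Gclc in day-7 TAC, 0.61 to 0.95, lay above that of its partner. Gclm shares 4.58% of its 50-base windows with other genes. The largest counts were 248 windows shared with Gm17494, which lies on the opposite strand of its locus at levels of 1.61 to 2.06, and 206 shared with Ppia. How multiply matching reads were counted is not given, and their part in the Gclm levels was not tested.

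Sulfiredoxin, the product of Srxn1, repairs overoxidised peroxiredoxins, and thioredoxin reductase 1, the product of Txnrd1, is a selenoprotein that keeps thioredoxin reduced. Srxn1 (chr2:152105516-152111376, plus strand, GRCm38) had levels of 4.25, 3.97 and 4.25 in day-1 TAC, 4.06, 3.67 and 3.61 in day-7 TAC, and 3.06, 3.06 and 2.96 in sham. Each TAC library stood above the sham libraries, and the TAC groups overlapped through day-7 TAC replicate 1. Srxn1 was 2.19-fold higher in day-1 TAC than in sham (1.13, SE 0.13, limma adjusted p = 0.000346), the largest fold change of the 10 genes. In day-7 TAC it was 1.68-fold higher than in sham (0.75, SE 0.13, limma adjusted p = 0.00292). The TAC groups differed by 0.38 (SE 0.13), which did not pass (limma adjusted p = 0.0804). Without day-7 TAC replicate 1 the difference was 0.51 with an adjusted p of 0.0346.

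Txnrd1 (chr10:82833951-82897712, plus strand, GRCm38) had levels of 6.39, 6.04 and 6.17 in day-1 TAC, 6.08, 6.23 and 6.0 in day-7 TAC, and 5.73, 5.76 and 5.83 in sham. The TAC groups overlapped each other, and neither overlapped sham. It was higher in day-1 TAC than in sham by 0.43 (SE 0.10, limma adjusted p = 0.00723) and in day-7 TAC by 0.33 (SE 0.10, limma adjusted p = 0.0284). The call for day-7 TAC was lost without day-7 TAC replicate 1 (adjusted p = 0.0615) or 2 (0.110), without sham replicate 1 (0.0754) or 2 (0.0779), and without the intensity trend (0.0535). The TAC groups differed by 0.10 (limma adjusted p = 0.502; 95% confidence interval -0.11 to 0.32).

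Srxn1 was the single gene of the 10 whose group means spanned at least 1 on the log2 scale. Among 11108 genes, those with the most like course over the 9 libraries, after each gene was centred on its own mean, were Osbpl10, Ece2 and Msra, with root mean square differences of 0.138, 0.154 and 0.173. Msra, a methionine sulfoxide reductase, had means of 5.57 in day-1 TAC, 5.16 in day-7 TAC and 4.49 in sham.

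The 250 bases before each RefSeq start were read because Srxn1 and Txnrd1, both with known antioxidant response elements, were higher in both TAC groups. RefSeq windows on GRCm38.p6 were found for 8 of the 10 genes by symbol, in 10 windows because Txnrd1 has 3 starts. Gclc and Hmox1 had no window and were not searched. The core of the antioxidant response element was searched as TGACNNNGC or TGAGNNNGC on both strands, and 23.01% of 32851 windows of this length held it. The windows of 4 genes held it: Srxn1 at 2 places, and Gclm, Mt2 and the second start of Txnrd1 at 1 place each. An AP-1 site, TGANTCA, was in 6.75% of all windows and in those of Srxn1 and Mt2, and 0.338% of all windows held 2 or more, as Srxn1 did. These motifs can overlap, as they did at 1 place in Srxn1 and 1 in Mt2. Neither motif was in the windows of Nqo1 or Gpx3, which says only that these letters are absent there. The RefSeq start differs from the first base of the gene in the GENCODE annotation, so that the windows of Gpx3 and Nox4 and those of the 2 later starts of Txnrd1 lie wholly inside their genes. The stretches of the genes with the element follow, 5′ to 3′ on the plus strand, with the element core and, for Srxn1, also the AP-1 sites in capitals; each ends before its RefSeq start.
Srxn1, chr2:152105359-152105494: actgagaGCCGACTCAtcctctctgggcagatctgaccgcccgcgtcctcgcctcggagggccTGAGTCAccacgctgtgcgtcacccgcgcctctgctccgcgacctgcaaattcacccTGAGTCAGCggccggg
Txnrd1, chr10:82859096-82859136: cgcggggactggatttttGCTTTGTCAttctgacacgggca
Gclm, chr3:122245407-122245447: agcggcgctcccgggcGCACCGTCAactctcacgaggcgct
A match is a description of the letters and not a shown binding site. Of the genes called against sham, Srxn1 had 2 such cores, Txnrd1 had 1 and Gpx3 had 0, and Gclc had no window. Of those not called in any comparison, Gclm and Mt2 had 1 each, Mt1 and Nox4 had 0, and Hmox1 had no window. Both cores of Srxn1 fit TGAGNNNGC, a spelling added to the search after values were seen. Those of Txnrd1, Gclm and Mt2 fit TGACNNNGC. With TGACNNNGC alone Srxn1 had 0 cores, and no relation between cores and calls was tested.

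NAD(P)H quinone dehydrogenase 1, the product of Nqo1, reduces quinones and is among the most used readouts of NRF2 activity. Nqo1 (chr8:107388225-107403206, minus strand, GRCm38) had levels of 4.68, 4.11 and 4.27 in day-1 TAC, 3.65, 3.51 and 3.79 in day-7 TAC, and 3.99, 4.03 and 3.87 in sham. Day-1 TAC lay above sham and day-7 TAC below it, with no overlap among the 3 groups. Nqo1 was 1.62-fold higher in day-1 TAC than in day-7 TAC (0.70, SE 0.14, limma adjusted p = 0.0104), and this call held in each fit without 1 library. Against sham, the difference was 0.39 in day-1 TAC (SE 0.14, limma adjusted p = 0.0584) and -0.31 in day-7 TAC (SE 0.14, limma adjusted p = 0.127), so neither passed. The day-1 value passed without day-1 TAC replicate 2 (0.51, adjusted p = 0.0262) and under the 3 other scalings (0.43 to 0.48, adjusted p of 0.0280 to 0.0415), and the day-7 value passed without day-1 TAC replicate 1 (adjusted p = 0.0462). Fibroblast markers summed to 4590 to 5778 in day-1 TAC, 4075 to 4539 in day-7 TAC and 3327 to 4583 in sham, and their part in the Nqo1 difference was not tested.

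Non-overlapping groups were common in these data. Day-1 TAC and sham did not overlap for 5 of the 10 genes, all higher in day-1 TAC, and for 48% of all genes tested (20.3% higher, 27.7% lower). Day-7 TAC and sham did not overlap for 4 of 10, with 3 higher and Nqo1 lower, and for 46.7% of all genes (22.4% higher, 24.3% lower). Between the TAC groups 2 of 10 did not overlap, with Nqo1 higher and Gclc lower in day-1 TAC, beside 38.9% of all genes (15.6% higher, 23.3% lower).

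**Figure D2:**
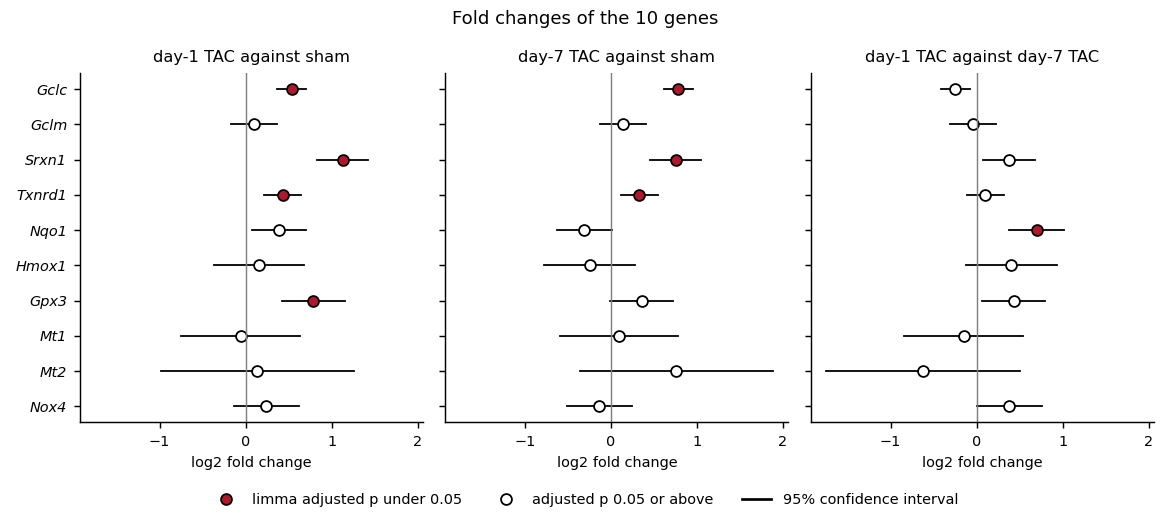
Log2 fold change (horizontal axis) of each gene in the 3 comparisons, with its 95% confidence interval; filled points passed limma at an adjusted p under 0.05. The intervals are narrowest for Gclc and widest for Mt2, and Nqo1 is the filled point between the TAC groups.

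Heme oxygenase 1, the product of Hmox1, splits heme into biliverdin, carbon monoxide and iron and is made by stressed cells and by macrophages that clear heme. Its levels were 3.40, 3.08 and 4.0 in day-1 TAC, 3.41, 2.71 and 3.13 in day-7 TAC, and 3.19, 3.25 and 3.56 in sham. All groups overlapped, with the lowest library in day-7 TAC and the highest in day-1 TAC. The fold change was 0.16 (SE 0.24) in day-1 TAC over sham, -0.25 (SE 0.24) in day-7 TAC over sham and 0.40 (SE 0.24) in day-1 over day-7 TAC, with limma adjusted p-values of 0.643, 0.462 and 0.266. The 95% confidence interval of the last ran from -0.12 to 0.93. Macrophage markers summed to 182 to 258 in day-1 TAC, 133 to 175 in day-7 TAC and 188 to 234 in sham. Of 12 such markers, 6 were higher and 0 lower in day-1 TAC than in day-7 TAC, beside the 6.42% and 10.3% of all genes called higher and lower there. Of 6 markers of macrophages that recycle heme, 5 were in the table, and they summed to 45.2 to 55.5 in day-1 TAC, 50.2 to 59.4 in day-7 TAC and 54.6 to 68.1 in sham. Of these, 3 were tested. Cd163, the receptor that takes up hemoglobin bound to haptoglobin, was lower than in sham in day-1 TAC (-1.36, limma adjusted p = 0.00132) and in day-7 TAC (-1.84, limma adjusted p = 0.000380). Vcam1 was called higher in day-7 TAC than in sham (0.51), a call lost without day-7 TAC replicate 1 or 2, and Slc40a1 was not called against sham. Timd4 (1 to 29 reads) and Spic (2 to 17 reads) were not tested. In day-1 TAC Timd4 stood above all sham libraries and Spic below them. The part of either marker list in the levels of Hmox1 was not tested.

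Glutathione peroxidase 3, the product of Gpx3, is a secreted selenoenzyme that reduces peroxides. Gpx3 (chr11:54902453-54910377, plus strand, GRCm38) had levels of 7.90, 7.59 and 7.78 in day-1 TAC, 7.77, 7.00 and 7.21 in day-7 TAC, and 7.06, 6.94 and 6.91 in sham. Day-1 TAC lay above sham, while day-7 TAC was split, with replicate 1 at the day-1 level and replicate 2 within the sham range. Gpx3 was 1.73-fold higher in day-1 TAC than in sham (0.79, SE 0.17, limma adjusted p = 0.00509). In day-7 TAC the difference from sham was 0.36 (SE 0.17, limma adjusted p = 0.129), and it was 0.52 without day-7 TAC replicate 2 (adjusted p = 0.0428) and 0.13 without day-7 TAC replicate 1 (adjusted p = 0.401). The TAC groups differed by 0.43 (SE 0.17, limma adjusted p = 0.0982), by 0.65 without day-7 TAC replicate 1 (adjusted p = 0.0107) and by 0.27 without day-7 TAC replicate 2 (adjusted p = 0.291). The size of both differences thus turned on these libraries. Adipocytes also make Gpx3, and the summed level of the 6 adipocyte markers in the table was at most 0.886 in any library. None of these markers passed the filter on low values, and the part of adipocytes or other cell types in the Gpx3 levels was not tested.

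The metallothionein genes Mt1 and Mt2 lie side by side on chromosome 8 and were not called in any comparison. Mt1 had levels of 6.20, 5.78 and 6.47 in day-1 TAC, 6.46, 6.38 and 6.05 in day-7 TAC, and 7.08, 5.82 and 5.72 in sham. Mt2 had levels of 4.11, 3.36 and 4.53 in day-1 TAC, 4.92, 4.44 and 4.51 in day-7 TAC, and 5.11, 3.85 and 2.63 in sham. Sham replicate 1 was the highest of the 9 libraries for both genes. Within sham, the highest library was 2.56 times the lowest for Mt1 and 5.59 times the lowest for Mt2. The pooled SD within groups was 0.50 for Mt1 and 0.81 for Mt2, larger than those of 99.4% and 99.7% of genes of like level.

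The fold change of Mt1 was -0.06 (SE 0.31) in day-1 TAC over sham and 0.09 (SE 0.31) in day-7 TAC over sham, with limma adjusted p-values of 0.906 and 0.850. That of Mt2 was 0.14 (SE 0.51) in day-1 TAC over sham and 0.76 (SE 0.51) in day-7 TAC over sham, with limma adjusted p-values of 0.859 and 0.287. These values turned on the sham libraries. Without sham replicate 1, Mt2 was higher in day-7 TAC than in sham by 1.38 (limma adjusted p = 0.0333), and without sham replicate 3 the difference was 0.14 (adjusted p = 0.819). In day-1 TAC over sham the Mt2 values of the same fits were 0.76 (adjusted p = 0.169) and -0.48 (0.375). For Mt1, the fit without sham replicate 1 gave 0.38 in day-1 TAC over sham (adjusted p = 0.153) and 0.53 in day-7 TAC over sham (0.0700), and that without sham replicate 3 gave -0.30 (0.504) and -0.15 (0.763). Between the TAC groups Mt1 differed by -0.15 and Mt2 by -0.62, and neither passed (limma adjusted p = 0.776 and 0.425). The antisense gene Gm45774 shares 45.8% of the 50-base windows of Mt2, and the strand setting of the counting is not given in the sources used here, so reads of Mt2 and of that gene may not be told apart.

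The library that stood high for the metallothioneins also stood high for red-cell genes and for genes that respond to glucocorticoids. Of 12 tested glucocorticoid-responsive genes, 8 had their highest level of the 9 libraries in sham replicate 1. In the other related lists this count ran from 0 of 4 glutathione peroxidases to 6 of 11 genes that regulate NRF2 or its elements. The share over all genes tested was not computed. Zbtb16, of the glucocorticoid list, went the other way within sham, at 6.82 in replicate 1 and at 7.13 and 7.69 in the others. Tsc22d3, a glucocorticoid-induced leucine zipper gene, was at 7.74 there and at 6.75 and 6.85 in the other sham libraries, and Fkbp5, which encodes a chaperone partner of the glucocorticoid receptor, at 6.08 there and at 4.53 and 4.72 in the others. The alpha-globin gene Hba-a1 had levels of 9.33, 9.23 and 9.66 in day-1 TAC, 8.46, 8.55 and 8.36 in day-7 TAC, and 9.89, 8.28 and 7.99 in sham. Sham replicate 1 was the highest of the 9, followed by the 3 day-1 TAC libraries. Alas2, the erythroid enzyme of heme synthesis, was at 5.96 in sham replicate 1 and at 4.19 and 4.47 in the other sham libraries. The 6 erythroid markers in the table summed to 634 to 866 in day-1 TAC, 357 to 420 in day-7 TAC, and 1013, 331 and 278 in the sham libraries. The part of either gene group in the spread of Mt1 and Mt2 was not tested. Hba-a1 and Hba-a2 are near-identical, and their reads may be split between them.

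**Figure D3:**
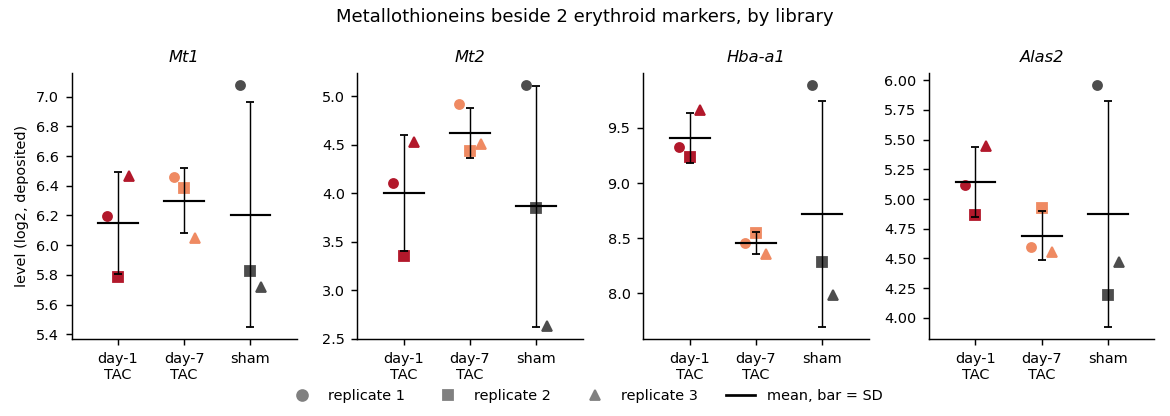
Deposited log2 level (vertical axis, own range per panel) of Mt1, Mt2 and the erythroid genes Hba-a1 and Alas2 in the 3 libraries of day-1 TAC, day-7 TAC and sham, with mean and SD. Sham replicate 1 (circle) is the highest of the 9 libraries in all 4 panels.

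The core of the metal response element, to which MTF1 binds, was searched as TGCACNC or TGCGCNC on both strands of the same windows. It was in 21.41% of all windows, and 1.263% held 3 or more. The windows of 5 genes held it, with 3 places in Mt2, 2 in Gclm and 1 each in Mt1, Srxn1 and Nox4. The metallothionein stretches are shown because MTF1 drives these genes; capitals mark the metal response cores and, in Mt2, also the antioxidant core. The stretch of Mt2 overlaps an annotated exon of Gm45774 on the opposite strand.
Mt2, chr8:94172388-94172578: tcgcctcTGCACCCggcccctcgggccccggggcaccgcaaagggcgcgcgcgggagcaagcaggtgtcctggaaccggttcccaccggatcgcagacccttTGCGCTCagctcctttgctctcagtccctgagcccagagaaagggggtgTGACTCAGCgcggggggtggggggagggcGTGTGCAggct
Mt1, chr8:94179049-94179079: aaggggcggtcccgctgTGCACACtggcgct
In Mt2 the antioxidant core lay 79 to 71 bases before the start, between metal response cores at 128 to 122 and 50 to 44 bases before it.

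NOX4 is an NADPH oxidase whose output follows its amount. Nox4, on chromosome 7, was the least abundant of the 10 genes, with levels of 2.60, 2.22 and 2.09 in day-1 TAC, 1.94, 1.74 and 2.09 in day-7 TAC, and 2.12, 2.02 and 2.04 in sham. Day-1 TAC replicate 1 stood above the other 8 libraries, and the groups overlapped. The fold change was 0.24 in day-1 TAC over sham, -0.14 in day-7 TAC over sham and 0.38 in day-1 over day-7 TAC (SE 0.17 each), with limma adjusted p-values of 0.295, 0.580 and 0.149.

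Per kilobase of the principal transcript, on the linear scale, Mt1 and Gpx3 were the most abundant of the 10 genes. Mt1 averaged 132 ± 30.5 per kilobase in day-1 TAC, 144 ± 21.1 in day-7 TAC and 148 ± 84.5 in sham, and Gpx3 averaged 136 ± 14.5 in day-1 TAC, 104 ± 29.99 in day-7 TAC and 78.8 ± 4.47 in sham (SD, n = 3 each). The libraries of the pair overlapped in both TAC groups. In sham, the lowest Mt1 library, at 95.9, stood above the highest Gpx3 library, at 83.8, and the difference of the means was smaller than the SD of Mt1. Mt2 came next, with 33.1 ± 12.7 in day-1 TAC, 48.8 ± 9.24 in day-7 TAC and 36.0 ± 28.7 in sham, and its libraries overlapped those of Txnrd1 in day-1 TAC and in sham. Txnrd1 followed with 21.0 ± 2.62 in day-1 TAC, 19.5 ± 1.58 in day-7 TAC and 15.5 ± 0.571 in sham, and Nqo1 with 13.3 ± 2.81 in day-1 TAC, 8.12 ± 0.793 in day-7 TAC and 10.1 ± 0.580 in sham. Hmox1, Gclc, Gclm and Srxn1 had group means of 2.90 to 8.08, and Nox4 came last with 1.02 to 1.33. This order depended on the length used. Over the merged exons of all transcripts Gpx3 had the highest mean in each group, and Mt1 averaged 58.0 ± 13.4 in day-1 TAC, where its libraries (44.2 to 71.0) no longer overlapped those of Gpx3 (106.6 to 132). The libraries of this pair then overlapped in day-7 TAC and in sham, and those of Mt2 and Txnrd1 in none of the groups. Nqo1 then stood above Txnrd1 in day-1 TAC (13.3 against 10.4) and in sham (10.1 against 7.72), with libraries that overlapped in day-1 TAC and not in sham.

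NRF2 itself was not called. Nfe2l2 had levels of 6.69, 6.60 and 6.62 in day-1 TAC, 6.52, 6.62 and 6.46 in day-7 TAC, and 6.62, 6.59 and 6.68 in sham. The groups overlapped, and the fold change was 0.00 in day-1 TAC over sham, -0.10 in day-7 TAC over sham and 0.10 in day-1 over day-7 TAC (SE 0.07 each, limma adjusted p = 0.975, 0.307 and 0.334). These are transcript levels, and NRF2 is controlled largely through its protein.

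Of 11 tested genes that regulate NRF2 or its elements, 3 were called in day-1 TAC against sham and 3 in day-7 TAC against sham, all lower. This was 27.3% in each, beside 34.8% and 28.9% of all genes. Over the 11 lists of related genes described here, the share called ran from 16.7% to 75% in day-1 TAC against sham, from 0% to 50% in day-7 TAC against sham and from 0% to 50% between the TAC groups, where 16.7% of all genes were called. The lists hold 4 to 27 tested genes, and 38 of their 66 counts of genes called higher or lower moved by over 1.5 times in at least 1 fit without a library. Some lists share genes, whose calls are counted in each. Gsr and Esd are in the lists of other NRF2 target genes and of glutathione genes. Txn1 and Prdx1 are in the lists of other NRF2 target genes and of thioredoxin genes. Of the 11 genes that regulate NRF2 or its elements, 1 was higher and 1 lower in day-1 TAC than in day-7 TAC. This was 18.2%, beside 16.7% of all genes. Bach1, the repressor that competes with NRF2, was at 5.21, 5.49 and 5.40 in day-1 TAC, 5.25, 5.50 and 5.51 in day-7 TAC, and 5.78, 5.73 and 5.82 in sham. Neither TAC group overlapped sham. Bach1 was lower than in sham in day-1 TAC (-0.41, SE 0.10, limma adjusted p = 0.00860) and in day-7 TAC (-0.36, SE 0.10, limma adjusted p = 0.0195). Keap1, the adaptor that brings NRF2 to degradation, was lower in day-7 TAC (-0.27, limma adjusted p = 0.0282) and not called in day-1 TAC (-0.14, limma adjusted p = 0.204). The ubiquitin ligase scaffold Cul3 was lower in day-1 TAC (-0.30, limma adjusted p = 0.0109), as was Bach2, a relative of Bach1 (-0.44, limma adjusted p = 0.0197). The small MAF gene Mafg was lower in day-7 TAC than in sham (-0.29, limma adjusted p = 0.0338). Several of these calls turned on 1 library, and the day-7 count of 3 lower was 0 without day-7 TAC replicate 1 and 1 without day-7 TAC replicate 3 or sham replicate 1. Day-7 calls were lost for Bach1 without day-7 TAC replicate 1 or sham replicate 3 (adjusted p up to 0.0705), for Keap1 without day-7 TAC replicate 1 or 3 or sham replicate 1 (up to 0.100), and for Mafg without these or sham replicate 2 (up to 0.117). The day-1 call of Bach2 was lost without day-1 TAC replicate 1 or sham replicate 1 or 2 (up to 0.0808).

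**Figure D4:**
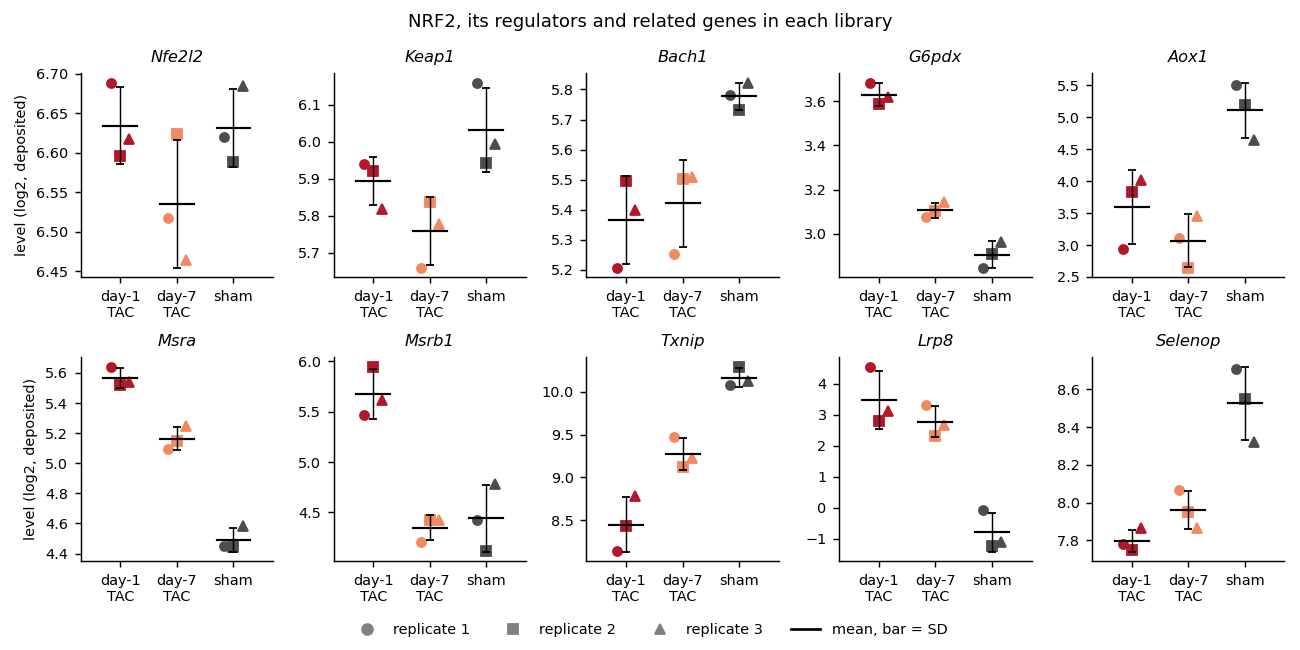
Deposited log2 level (vertical axis, own range per panel) of Nfe2l2, its regulators Keap1 and Bach1, and 7 related genes in the 3 libraries of day-1 TAC, day-7 TAC and sham, with mean and SD. Nfe2l2 overlaps in all groups, Bach1 and Txnip lie below sham in all 6 TAC libraries, and Msra and Lrp8 lie above it.

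Other known NRF2 target genes went in both directions, as did all genes tested. Of 27 tested, 5 were higher and 6 lower in day-1 TAC than in sham, 2 were higher and 9 lower in day-7 TAC than in sham, and 6 were higher and 1 lower in day-1 TAC than in day-7 TAC. The share called was 40.7% in each comparison with sham, beside 34.8% (day-1 TAC) and 28.9% (day-7 TAC) of all genes. Between the TAC groups it was 25.9%, beside 16.7%. Under the 3 other scalings the day-1 counts against sham were 7 to 8 higher and 5 lower, and 6 to 8 were higher in day-1 TAC than in day-7 TAC. The 5 higher in day-1 TAC than in sham became 2 without day-1 TAC replicate 1 or 3 or sham replicate 2, the 9 lower in day-7 TAC became 4 without day-7 TAC replicate 2 and 5 without sham replicate 1, and the 6 higher in day-1 TAC than in day-7 TAC became 3 without day-1 TAC replicate 1 or 3 or day-7 TAC replicate 1. G6pdx, which makes NADPH in the pentose phosphate pathway, had levels of 3.68, 3.59 and 3.62 in day-1 TAC, 3.08, 3.10 and 3.14 in day-7 TAC, and 2.85, 2.91 and 2.96 in sham. The 3 groups stood apart, and G6pdx was higher in day-1 TAC than in sham by 0.72 (SE 0.10, limma adjusted p = 0.000626) and than in day-7 TAC by 0.52 (SE 0.10, limma adjusted p = 0.00765). It is X-linked, and without day-1 TAC replicate 3 these values were 0.73 (adjusted p = 0.00269) and 0.53 (adjusted p = 0.0226). Aox1, aldehyde oxidase, had levels of 2.94, 3.83 and 4.02 in day-1 TAC, 3.10, 2.64 and 3.46 in day-7 TAC, and 5.50, 5.19 and 4.65 in sham. It was lower than in sham in both TAC groups (-1.52 in day-1 TAC and -2.04 in day-7 TAC, limma adjusted p = 0.00425 and 0.00122), as were the carboxylesterase Ces1d (-2.58 and -2.38, limma adjusted p = 0.00189 and 0.00352) and the glutathione transferase Gsta4 (-0.49 and -0.69, limma adjusted p = 0.00539 and 0.00129).

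**Figure D5:**
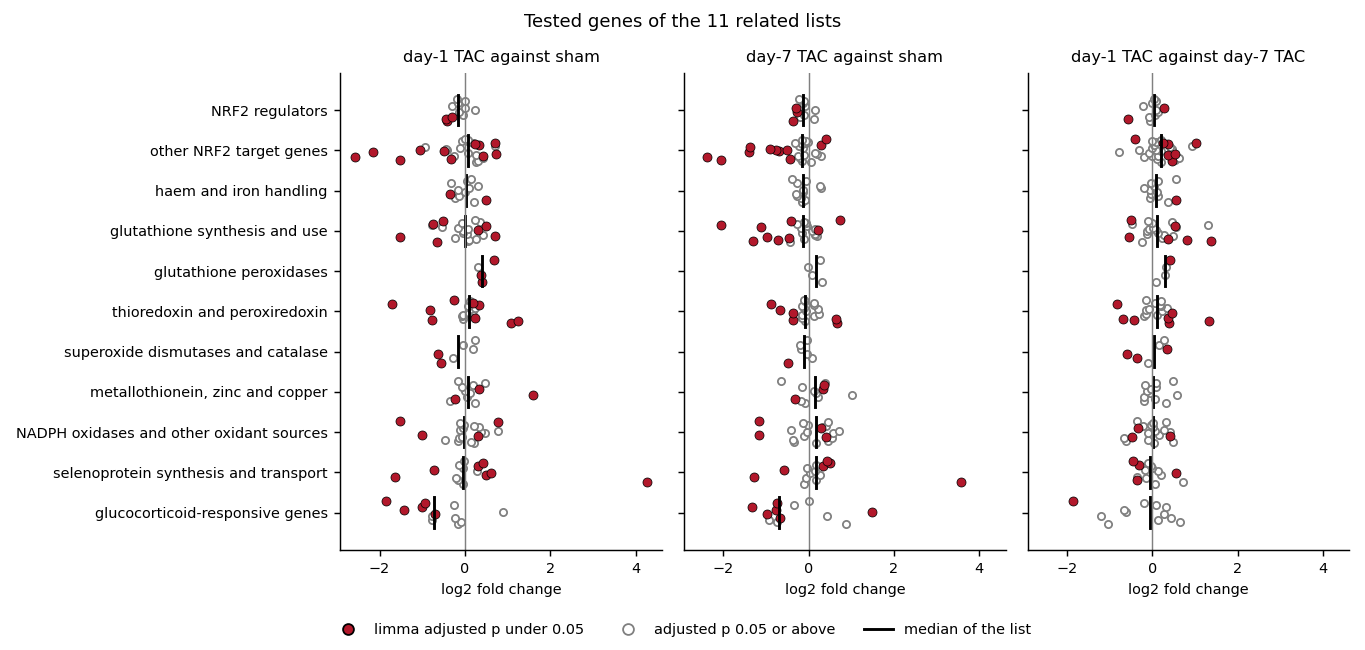
Log2 fold change (horizontal axis) of each tested gene of the 11 related lists in the 3 comparisons; filled points passed limma at an adjusted p under 0.05 and the bar is the median of the list. Called genes lie on both sides of 0 in the other NRF2 target genes, and Lrp8 is the point beyond 3 in the selenoprotein list against sham.

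Around the ligase subunits Gclc and Gclm, 22 other genes of glutathione synthesis and use were tested. There were 3 higher and 4 lower in day-1 TAC than in sham, 2 higher and 7 lower in day-7 TAC than in sham, and 4 higher and 2 lower in day-1 TAC than in day-7 TAC. In this order 31.8%, 40.9% and 27.3% were called, beside 34.8%, 28.9% and 16.7% of all genes. With 1 library left out, 5 to 8 were lower in day-7 TAC than in sham, and 2 to 4 were higher and 0 to 2 lower in day-1 TAC than in day-7 TAC. Gss, which completes glutathione after the ligase, was not called against sham (-0.16 in day-1 TAC and -0.19 in day-7 TAC), nor was the reductase Gsr (0.07 and 0.15). Ggt5, which cleaves extracellular glutathione conjugates, was lower in both (-1.52 in day-1 TAC and -0.97 in day-7 TAC, limma adjusted p = 0.000221 and 0.00219). Chac2, which degrades glutathione, was lower in day-7 TAC than in sham (-0.71, limma adjusted p = 0.000524) and higher in day-1 TAC than in day-7 TAC (0.81, limma adjusted p = 0.000785).

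Around Srxn1 and Txnrd1, 19 genes of the thioredoxin, peroxiredoxin and methionine sulfoxide reductase families were tested. There were 5 higher and 4 lower in day-1 TAC than in sham, 2 higher and 4 lower in day-7 TAC than in sham, and 4 higher and 3 lower in day-1 TAC than in day-7 TAC. In this order 47.4%, 31.6% and 36.8% were called, beside 34.8%, 28.9% and 16.7% of all genes. The 5 higher in day-1 TAC became 3 without day-1 TAC replicate 1 or 3 or sham replicate 2, and the 4 lower in day-7 TAC became 2 without day-7 TAC replicate 1. Txnip, an inhibitor of thioredoxin, had levels of 8.14, 8.43 and 8.78 in day-1 TAC, 9.48, 9.12 and 9.23 in day-7 TAC, and 10.07, 10.29 and 10.13 in sham. The 3 groups stood apart, with day-1 TAC lowest. Txnip was lower than in sham in day-1 TAC (-1.72, SE 0.15, limma adjusted p = 9.0e-05) and in day-7 TAC (-0.89, SE 0.15, limma adjusted p = 0.00212), and lower in day-1 TAC than in day-7 TAC (-0.83, SE 0.15, limma adjusted p = 0.00666). Msrb1, a selenoprotein that repairs oxidised methionine, had levels of 5.47, 5.95 and 5.61 in day-1 TAC, 4.20, 4.43 and 4.42 in day-7 TAC, and 4.42, 4.12 and 4.78 in sham. It was higher in day-1 TAC than in sham by 1.23 (limma adjusted p = 0.000638) and than in day-7 TAC by 1.33 (limma adjusted p = 0.00154), and in day-7 TAC it was not called against sham (-0.09, limma adjusted p = 0.715). Msra was higher in both TAC groups than in sham (1.08 in day-1 TAC and 0.67 in day-7 TAC, limma adjusted p = 6.6e-05 and 0.000366).

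Beside Gpx3, 4 other glutathione peroxidases were tested, of which 3 were higher in day-1 TAC than in sham and 1 was higher in day-1 TAC than in day-7 TAC. In day-7 TAC against sham 0 were called by limma, also with voom weights, and 2 had an unadjusted p under 0.05. Gpx8, of the endoplasmic reticulum, was higher in day-1 TAC than in sham by 0.67 (SE 0.10, limma adjusted p = 0.000808), and Gpx4, which protects membranes from lipid peroxides, by 0.38 (limma adjusted p = 0.00987). Txnrd1 and Gpx3 are selenoproteins, and of 14 genes of selenoprotein synthesis and transport 5 were higher and 2 lower in day-1 TAC than in sham, 4 higher and 2 lower in day-7 TAC than in sham, and 1 higher and 3 lower in day-1 TAC than in day-7 TAC. In this order 50%, 42.9% and 28.6% of the 14 were called, beside the shares of all genes given above. Lrp8, a receptor that takes up selenoprotein P in some tissues, had 492, 141 and 166 recovered reads in day-1 TAC libraries, 238, 96 and 134 in day-7 TAC libraries, and 19, 11 and 9 in sham libraries. Every TAC library held more than any sham library, and the log2 fold change was 4.28 in day-1 TAC (SE 0.46, limma adjusted p = 0.000220) and 3.56 in day-7 TAC (SE 0.46, limma adjusted p = 0.000584). Selenop, which encodes that carrier, was lower in day-1 TAC (-0.73, limma adjusted p = 0.000587) and in day-7 TAC (-0.56, limma adjusted p = 0.00245).

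Of 6 genes of superoxide and peroxide removal, 2 were called in day-1 TAC against sham and 1 in day-7 TAC against sham, all lower, and 1 was higher and 2 lower in day-1 TAC than in day-7 TAC. In this order 33.3%, 16.7% and 50% were called, beside 34.8%, 28.9% and 16.7% of all genes. With 1 library left out, 0 to 1 were higher and 1 to 2 lower in day-1 TAC than in day-7 TAC. The higher gene, Sod1, lost its call in 10 of 19 other settings, and Ccs, among the lower ones, in 12. Catalase, Cat, was lower than in sham in both TAC groups (-0.57 in day-1 TAC and -0.48 in day-7 TAC, limma adjusted p = 0.00111 and 0.00340). Of 19 genes of NADPH oxidases and other oxidant sources related to Nox4, 2 were higher and 2 lower in each comparison with sham, and 1 was higher and 2 lower in day-1 TAC than in day-7 TAC. The share called was 21.1% in each comparison with sham and 15.8% between the TAC groups, beside the shares of all genes given above. Maob, a mitochondrial monoamine oxidase that releases hydrogen peroxide, was lower in both TAC groups (-1.01 in day-1 TAC and -1.16 in day-7 TAC, limma adjusted p = 0.00247 and 0.00158). Cyba, the membrane partner of NOX4, and Cybb, the phagocyte oxidase, were not called against sham (0.21 and 0.14 in day-1 TAC, 0.17 and -0.34 in day-7 TAC).

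Beside the metallothioneins, 12 genes of zinc and copper handling were tested. There were 2 higher and 1 lower in each comparison with sham, and under the 3 other scalings 4 to 5 higher and 0 lower in day-1 TAC. As deposited, the share called was 25% in each TAC group, beside 34.8% (day-1 TAC) and 28.9% (day-7 TAC) of all genes. Between the TAC groups 16.7% of all genes were called. In day-1 TAC against day-7 TAC limma called 0, also with voom weights, and 2 had an unadjusted p under 0.05, while each of the 3 other scalings and the fit without sham replicate 1 called 1 higher. With 1 library left out, 0 to 4 were higher and 0 to 2 lower in day-1 TAC than in sham. Mtf1, the metal-sensing factor that drives metallothionein genes, was lower in day-1 TAC (-0.24, limma adjusted p = 0.0444) and in day-7 TAC (-0.32, limma adjusted p = 0.0170). The day-1 call of Mtf1 was lost in 13 of 18 other settings, the 3 scalings and the fits without each library other than sham replicate 1 among them (adjusted p up to 0.173), and the day-7 call was lost without day-7 TAC replicate 1 or sham replicate 2 (up to 0.0692). Of 12 other genes that respond to glucocorticoids, 5 were lower in day-1 TAC than in sham, 1 was higher and 5 lower in day-7 TAC than in sham, and 1 was lower in day-1 TAC than in day-7 TAC. In this order 41.7%, 50% and 8.33% were called, beside the shares of all genes given above. The median fold change of these 12 genes was -0.74 in day-1 TAC and -0.70 in day-7 TAC against sham. Without sham replicate 1, the highest library for 8 of the 12, these medians were -0.28 and -0.31, with 5 lower in day-1 TAC and 2 higher and 4 lower in day-7 TAC. Klf9, a transcription factor gene, was lower in both (-0.69 and -0.98, limma adjusted p = 0.0122 and 0.00280).

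Of 12 genes of heme and iron handling related to Hmox1, 1 was higher and 1 lower in day-1 TAC than in sham, and 1 was higher in day-1 TAC than in day-7 TAC. In day-7 TAC against sham limma called 0, also with voom weights, and 3 had an unadjusted p under 0.05. In day-1 TAC, day-7 TAC and between the TAC groups, 16.7%, 0% and 8.33% were called, beside 34.8%, 28.9% and 16.7% of all genes. Blvra, which turns the biliverdin made by HMOX1 into bilirubin, was higher in day-1 TAC than in sham by 0.49 (limma adjusted p = 0.0289), a call lost without day-1 TAC replicate 1 or 2 or sham replicate 2 or 3 (adjusted p up to 0.107). Hmox2, the constitutive heme oxygenase, was not called against sham (-0.01 in day-1 TAC and -0.13 in day-7 TAC).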

How the data were processed

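Left-ventricle messenger RNA was sequenced in 9 libraries, 3 per group, as single-end reads of ScriptSeq v2 libraries, per the labels' protocols. The submitters' processing notes name Trim Galore, STAR, edgeR and mm10. Versions, annotation, strandedness and the treatment of multiply matching reads are not given there or in the labels. The authors deposited log2 values, named as TMM-scaled per the file headers, for 16710 rows of gene symbols. Library medians differed by at most 0.00277 on the log2 scale, and taken out of the log each library summed to 959281 to 1053663. Without the log, 100.0% of values were whole multiples of the lowest value in the library (tolerance 0.001 reads), so reads were recovered with that value as 1 read. The 12 rows of 3 repeated symbols were left out, which kept 16698 genes. A pair of sham columns carries the same name, so sham replicates 2 and 3 are numbered by column order.

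Testing took genes with log2 values above 0 in 3 or more libraries. A linear model with an intensity trend was fitted over all 9 libraries with limma 3.58.1 (R 4.3.3), on the log2 values since they are not counts. Tests were two-sided with Benjamini-Hochberg adjustment over the 13712 genes, and calls were made at an adjusted p under 0.05. The fold change reported is a difference of group means of log2 values, with its standard error (SE). Nothing in the labels says that replicates are separate animals or litters, so the p-values reflect sample-to-sample spread alone, which may be technical. In day-1 TAC the spread is not wholly technical, as the Xist and Ddx3y reads set replicate 3 apart from its partners. No library was a copy of another of its group (chi-square per gene 10.3 to 30.2). The steps were tested on simulated data. Same-numbered TAC replicates did not vary together (r of -0.22, -0.11 and -0.04), so no pairing was used.

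The 10 genes, the 11 related lists and the marker lists were chosen with earlier results of these data known. Of each list, up to 4 called genes with the smallest p could be named per comparison, with Nfe2l2 and Keap1 whatever their result; Gss, Gsr, Cyba, Cybb and Hmox2 were added after their values were seen, as was the second spelling of the antioxidant core. Gene positions and transcript lengths are from GENCODE release M21 on GRCm38, and promoter sequences from RefSeq on GRCm38.p6.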

Additional observations from a re-analysis of the deposited data

Results flagged for a closer look

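Nqo1 differed between the TAC groups when they were compared directly, while neither group passed against sham. Its log2 levels were 4.68, 4.11 and 4.27 in day-1 TAC, 3.65, 3.51 and 3.79 in day-7 TAC, and 3.99, 4.03 and 3.87 in sham. All 3 day-1 TAC libraries lay above the sham libraries and all 3 day-7 TAC libraries below them. The difference between the TAC groups was 0.70 (SE 0.14, limma adjusted p = 0.0104). Age at surgery and time under load differ together between these groups and cannot be told apart.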

How the results depend on the processing

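Under the 20 alternatives run, no fold change of a called gene among the 10 changed its direction. Between the TAC groups the number of the 10 genes called was 2 without the intensity trend, with the filter at 2 on the log2 scale and with voom weights on the recovered reads, and 0 when a minimum fold change of 1.2 was tested, where the adjusted p of Nqo1 was 0.135. That test called 1428 genes in day-1 TAC over sham, 1066 in day-7 TAC over sham and 273 in day-1 over day-7 TAC, and Txnrd1 was lost against sham in both. With 1 library left out, genes called were 3259 to 4525 in day-1 TAC over sham, 2594 to 4404 in day-7 TAC over sham and 1261 to 2491 in day-1 over day-7 TAC, and of the 10 genes 4 to 5, 2 to 4 and 1 to 3 were called. The replicate number as a block in the 6 TAC libraries, whose pairing the data did not bear out, left 1167 genes called between the TAC groups and 1 of the 10 genes, Nqo1, and also lost G6pdx (adjusted p = 0.0507).

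The share of called genes that were higher depended on the scaling. It was 41.1% in day-1 TAC over sham as deposited, against 56.3% with mean centring, 58.2% with the upper quartile and 49.3% with a trimmed mean. It was 47.7% in day-7 TAC over sham, against 51.2%, 52.7% and 49.8%, and 38.5% between the TAC groups, against 56.7%, 56.8% and 48.0%. The cause was not tested. At 3 libraries per group, the intervals of Mt2 were wide (-0.36 to 1.88 in day-7 TAC over sham), and those of Gclc narrow (0.61 to 0.95).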
